A study of Mus musculus with 4 samples.

Results

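The 60 genes described here build the mitotic spindle, attach chromosomes to it and finish the division: mitotic kinases, kinetochore and centromere proteins, checkpoint proteins, spindle motors, assembly factors, condensin subunits and proteins of cytokinesis. They were chosen by gene symbol, with earlier results of these data known, and counts were summed over the transcripts of each symbol. All 60 were found among the 40213 symbols of the count files, on 281 of 137259 transcript entries. All 60 also passed the filter on low counts (filterByExpr) and are among the 12393 genes tested, and the lowest count of any of them in a library was 27.

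The RNA came from CD24+ emergency progenitors (EPs), which are CD11c+CD117+ cells that expand under the cytokine Flt3L and give rise to conventional dendritic cells. Spleens were from WT mice (TopBP1 fl/fl littermates, 2 libraries) and from TopBP1 cKO mice (TopBP1 fl/fl, CD11c-cre, 2 libraries), 7 to 10 weeks of age by the methods of the study. Every mouse thus carried the floxed alleles, and every mouse received Flt3L-Ig by the intraperitoneal route (10 μg on days 0 and 3) before EPs were sorted on day 9. Cre is driven by the CD11c promoter, so only cells that have switched it on can lose TopBP1, a scaffold protein of DNA replication and the DNA damage response. Whether a library holds 1 mouse or a pool is not given in the sources used here, so each p-value measures only the spread between these libraries.

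Counts are printed as deposited, and they may be rounded estimates, since the submitters' processing notes name Salmon. Library totals ran from 14561600 to 15193800 counts, and no pair of libraries was a duplicate (counts of any pair differed by a chi-square of 11.9 or more per degree of freedom). The libraries are named WT1, WT2, cKO1 and cKO2 after their titles, and the last 2 are called the cKO-labelled libraries. Over all genes the chi-square per degree of freedom was 14.4 for WT1 against WT2, 11.9 for WT1 against cKO1 and 13.5 for WT2 against cKO1. For the pairs with cKO2 it ran from 38.7 (cKO1) to 47.6 (WT1). *Topbp1*, the targeted gene, was lower than in WT in only 1 of the cKO-labelled libraries. Its 1102 counts in WT1 and 1143 in WT2 compare with 773 in cKO1 but 1279 in cKO2. These sums cover the whole gene, and whether its floxed part was removed was not tested. Of the 9 markers of CD24+ EPs and the cDC1 lineage, all were detected in every library, among them *Kit* (CD117) with 6812, 7181, 6014 and 5916 counts. In this order (WT1, WT2, cKO1, cKO2), the summed level of these 9 genes was 6412, 6438, 6267 and 5477 CPM, counts scaled to a common library size with TMM factors. Whether groups overlap was judged on CPM throughout.

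Mitosis needs duplicated chromosomes to be packed by condensin, captured at their kinetochores by microtubules, and held back by the spindle checkpoint until each pair is attached. The anaphase promoting complex, with its activator CDC20 and the E2 enzyme UBE2C, then marks securin and cyclin B for destruction, and separase cuts the cohesin that holds sister chromatids. Many of these genes are transcribed only late in the cycle, under MuvB complexes with B-MYB and FOXM1 that act through the CHR element of their promoters, often beside CCAAT boxes bound by NF-Y. In bulk RNA, a larger share of dividing cells and more mRNA per dividing cell cannot be told apart.

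The mitotic genes were higher in the cKO-labelled libraries, by a little in cKO1 and by far more in cKO2. Summed over the 60, the counts were 22458 in WT1, 22649 in WT2, 28435 in cKO1 and 67950 in cKO2, which was 0.154%, 0.149%, 0.188% and 0.450% of all counts. Against the mean of the WT libraries, the median gene was at 1.27-fold in cKO1 (range 0.969 to 1.83) and at 3.22-fold in cKO2 (range 0.898 to 4.58). Between the WT libraries themselves the median ratio was 0.935 (range 0.538 to 1.63). cKO2 exceeded cKO1 for 59 of the 60, the exception being *Pttg1*. In the plot of each gene by library, the WT points lie around 0 and the points of cKO2 form a separate column at the right.

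**Figure D1:**
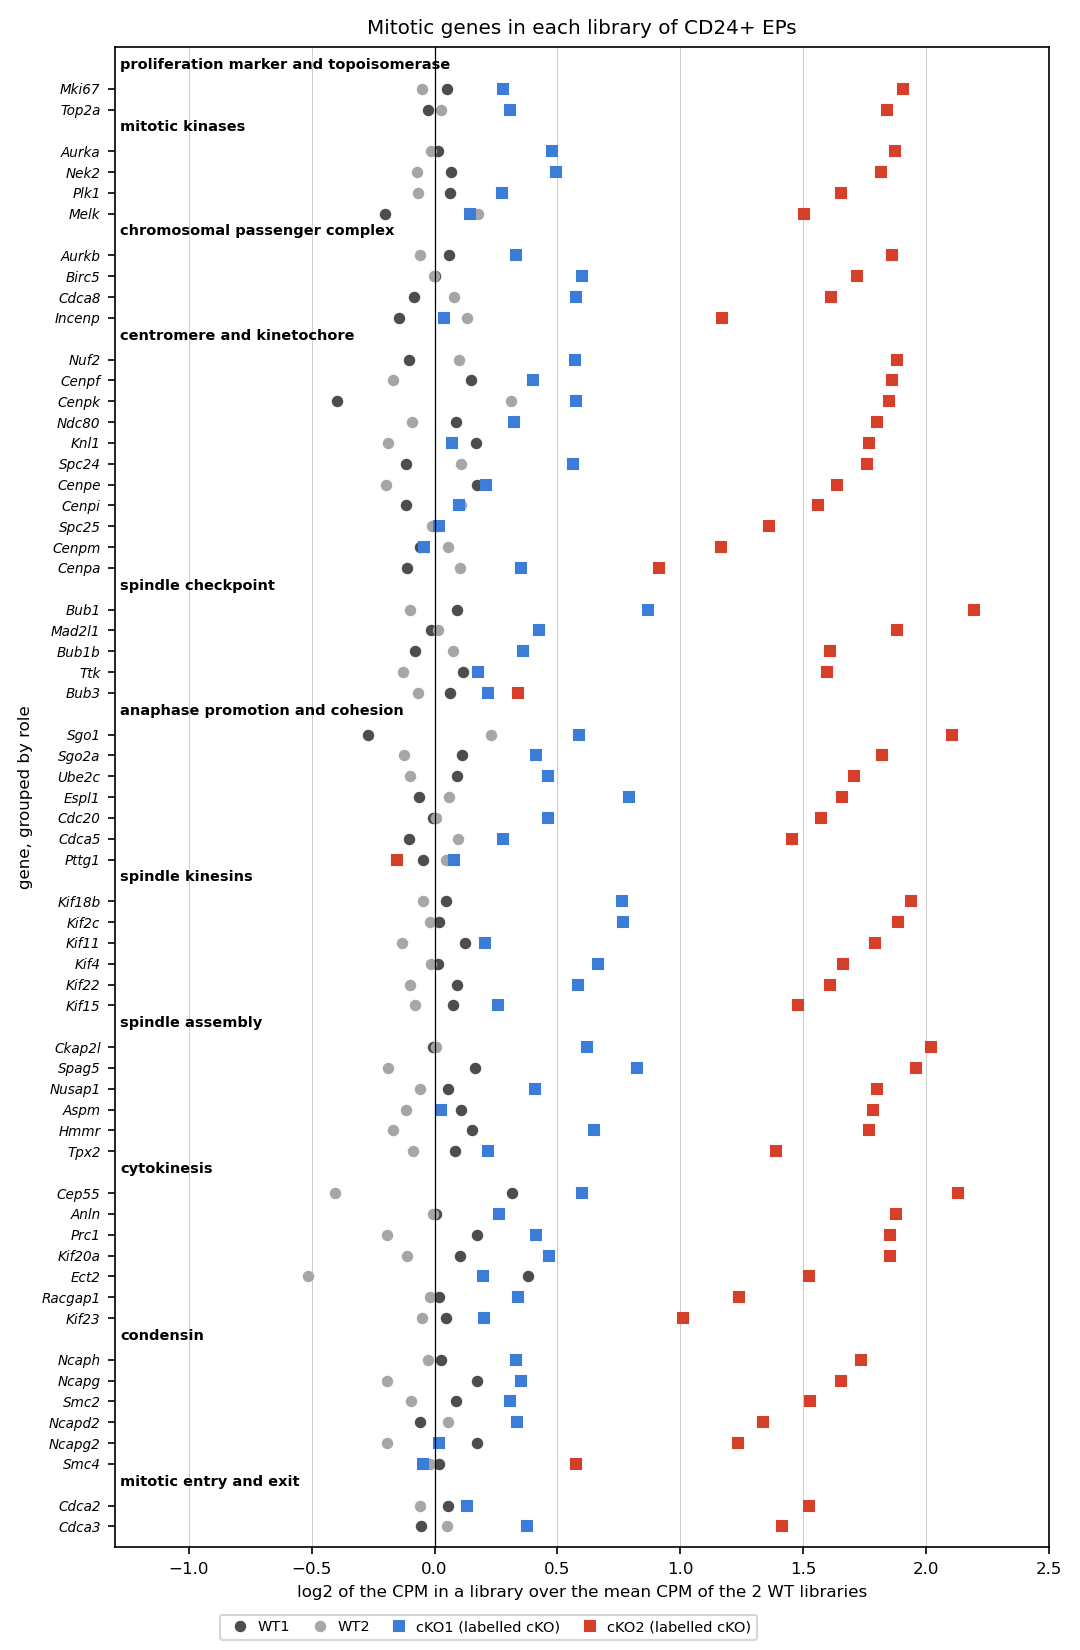
Level of each of the 60 mitotic genes in each library, as log2 of its CPM over the mean CPM of the 2 WT libraries (x axis), with genes in rows grouped by role (y axis); circles are WT libraries and squares cKO-labelled libraries. The median gene sits at 0.35 in cKO1 and at 1.68 in cKO2, and *Pttg1*, *Bub3* and *Smc4* stay nearest to 0 in cKO2.

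None of the 60 passed the test at FDR < 0.05 (p adjusted over all genes tested by Benjamini and Hochberg). The quasi-likelihood test of edgeR called 0.105% of all genes tested in either direction and 0 of the 60, whose smallest FDR was 0.307. At an unadjusted p below 0.05, 51 of the 60 were higher and 0 lower, where 6.95% of all genes tested were higher. Their median log2 fold change, cKO-labelled libraries over WT, was 1.19 against 0.01 over all genes tested, from −0.03 (*Pttg1*) to 1.68 (*Bub1*), with SEs from 0.126 to 0.478, and 59 of 60 were above 0. Both cKO-labelled libraries lay above both WT libraries for 50 of the 60 and below them for 0, where 22.8% of all genes tested lay above. An exact permutation test of 2 libraries against 2 cannot go below 0.333, so the p-values come only from models fitted across all genes.

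Other count tests called some members, all of them higher. The likelihood ratio test of edgeR, which allows less for uncertainty in the spread, called 13 of the 60 at FDR < 0.05 and 1.45% of all genes tested as higher. The Wald test of DESeq2 called 16 of the 60, against 0.839% of all genes. The 11 called by both were *Birc5*, *Cdca8*, *Nuf2*, *Bub1*, *Ube2c*, *Espl1*, *Kif2c*, *Kif4*, *Kif18b*, *Hmmr* and *Spag5*, and 18 were called by at least 1 of them. Limma-voom called 0 at FDR < 0.05 and gave an unadjusted p below 0.05 for 38 of the 60, where 5.93% of all genes were higher at that level.

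The 2 cKO-labelled libraries carry unequal parts of this difference. cKO2 lay above both WT libraries for 59 of the 60 (41.3% of all genes) and was at least 2-fold above the WT mean for 56 of them (5.75% of all genes). cKO1 lay above both WT libraries for 51 of the 60 (37% of all genes) and reached 2-fold for 0 of them. Without cKO2, the median log2 fold change was 0.34, with 58 of 60 above 0 and a range from −0.05 to 0.86. In that fit the quasi-likelihood test called 4 of the 60 at FDR < 0.05, where 1.11% of all genes were called higher, and 30 of the 60 had an unadjusted p below 0.05, where 6.08% of all genes did. These 4 were *Bub1* (log2 fold change 0.86, FDR 0.0337), *Espl1* (0.78, FDR 0.0172), *Spag5* (0.82, FDR 0.0265) and *Ckap2l* (0.61, FDR 0.0449). Without cKO1, 58 of the 60 were called, but so were 11.2% of all genes as higher, and the median was 1.68. Each of these fits leaves a lone library in the labelled group, which is assumed to vary like the WT pair.

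**Figure D2:**
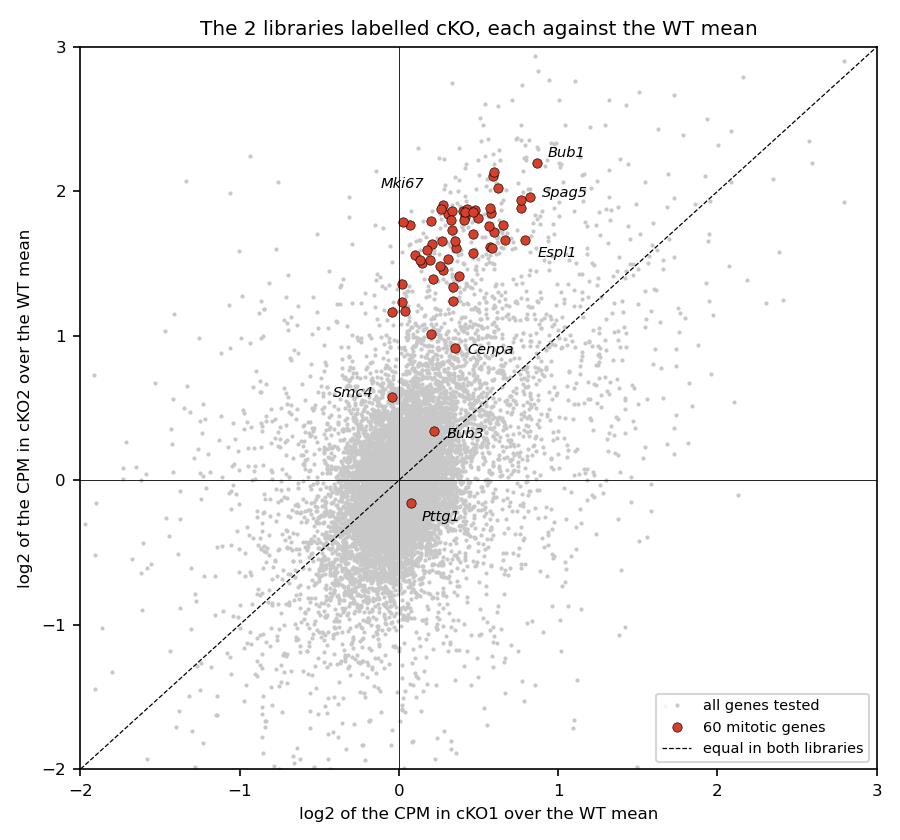
Each gene tested (grey, 12292 drawn, with 65 beyond the axes and 36 not drawn because they were at 0 in cKO1, in cKO2 or in both WT libraries) and the 60 mitotic genes (red), with log2 of the CPM in cKO1 over the WT mean on the x axis and the same for cKO2 on the y axis; the dashed line marks equal values. The mitotic genes lie above the dashed line, with the exception of *Pttg1*, and 56 of them are at or above 1 on the y axis against 0 on the x axis.

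Markers of other cell types differed with the labels as well. The summed level of 13 neutrophil genes was 1487 and 1232 CPM in the WT libraries, 3196 CPM in cKO1 and 2448 CPM in cKO2. Both cKO-labelled libraries lay above both WT libraries for 11 of the 13, as for 22.8% of all genes tested. By the quasi-likelihood test 5 of the 13 were higher at FDR < 0.05, where 10 of the 12393 genes tested were. The higher sum in cKO1 came from *Mpo* (8464 and 6391 counts in WT, 13311 and 3014 in the cKO-labelled libraries) and *Elane*, granule genes that early myeloid progenitors also express. The other 11 genes summed to 791 and 744 CPM in WT, 2192 CPM in cKO1 and 2219 CPM in cKO2. Of the 13, 8 were higher in cKO2 than in cKO1, where 6042 of the 12393 genes tested and 59 of the 60 mitotic genes were. Erythroid genes summed to 38.2, 37.5, 54.4 and 73.9 CPM in the 4 libraries, most of it *Tfrc* (353, 390, 588 and 901 counts), the transferrin receptor, which other dividing cells express too. Summed levels of the B cell list ran from 68.2 to 86.1 CPM, those of the T and NK cell list from 174 to 223 CPM, and those of the plasma cell list from 135 to 171 CPM. The B cell list was highest in cKO2, by a small margin over cKO1 (82.4 CPM). Most of the T and NK cell sum was *Cd8a* (2532, 3114, 2253 and 3173 counts), which some dendritic cells express too, and without it the list summed to 13.5, 14.0, 25.9 and 17.7 CPM, highest in cKO1. Lists for pDCs (213 to 234 CPM), macrophages and monocytes (530 to 691 CPM), stem and multipotent progenitors (48.3 to 64.8 CPM) and megakaryocytes (3.77 to 9.58 CPM, with 5 of its 6 genes at 0 in some library) were not highest in cKO2. Within the pDC list *Cox6a2* had 0 and 3 counts in WT and 183 and 168 in the cKO-labelled libraries (FDR 0.00762 by the quasi-likelihood test). Directions in that list were mixed, with a median log2 fold change of 0.02 over the 8 genes tested. By the same test 2 were higher (*Cox6a2* and *Runx2*) and 2 lower (*Tcf4* and *Bst2*) at an unadjusted p below 0.05. Of the 12393 genes tested, 861 were higher and 467 lower at that p. Outside the pDC and neutrophil lists no marker of another cell type passed FDR < 0.05 by the quasi-likelihood test. *Tfrc* passed it by the likelihood ratio test (FDR 0.01) and by DESeq2 (FDR 0.0164). The part of other cells in the mitotic genes was not tested.

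Promoter sequences show what these genes share that the choice by name did not use. RefSeq windows of 250 bases before to 50 bases after the start of a transcript, on GRCm38.p6, were at hand for 53 of the 60 genes (60 windows), and *Smc4*, *Spc24*, *Kif20a*, *Tpx2*, *Aurkb*, *Incenp* and *Cdca2* had no entry. The CHR was searched as TTTGAA and also in its variant form TTCGAA, which reads alike on both strands and was counted once. The CCAAT box was searched as ATTGG, both motifs on both strands, and a match of one motif can share an end base with a match of the other. The sequences are the 100 bases before the start, on the strand of the gene, for 7 genes of several roles whose CHR and CCAAT matches lie there, followed by *Bub3* and *Pttg1*, which differed least. Capitals mark the matches on either strand, those of 6 bases for the CHR and those of 5 bases for the CCAAT box.
Top2a (GRCm38.p6, chr11:99024190-99024289, minus strand): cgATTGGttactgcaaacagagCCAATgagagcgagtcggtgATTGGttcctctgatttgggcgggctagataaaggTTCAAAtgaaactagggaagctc
Cdc20 (GRCm38.p6, chr4:118437344-118437443, minus strand): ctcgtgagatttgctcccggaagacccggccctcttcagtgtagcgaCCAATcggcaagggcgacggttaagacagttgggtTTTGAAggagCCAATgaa
Ube2c (GRCm38.p6, chr2:164769829-164769928, plus strand): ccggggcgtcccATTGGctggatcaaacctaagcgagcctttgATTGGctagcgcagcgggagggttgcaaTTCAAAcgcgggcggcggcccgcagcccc
Espl1 (GRCm38.p6, chr15:102296193-102296292, plus strand): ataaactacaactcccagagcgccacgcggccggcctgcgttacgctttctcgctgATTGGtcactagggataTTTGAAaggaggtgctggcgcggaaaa
Kif11 (GRCm38.p6, chr19:37376282-37376381, plus strand): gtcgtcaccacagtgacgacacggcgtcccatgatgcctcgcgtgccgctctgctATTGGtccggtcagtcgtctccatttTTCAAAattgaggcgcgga
Ckap2l (GRCm38.p6, chr2:129297213-129297312, minus strand): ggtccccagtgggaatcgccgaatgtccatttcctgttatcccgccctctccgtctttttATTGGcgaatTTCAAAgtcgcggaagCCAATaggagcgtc
Prc1 (GRCm38.p6, chr7:80294376-80294475, plus strand): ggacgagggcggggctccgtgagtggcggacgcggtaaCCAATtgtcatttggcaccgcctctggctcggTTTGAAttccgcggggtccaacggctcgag
Bub3 (GRCm38.p6, chr7:131560270-131560369, plus strand): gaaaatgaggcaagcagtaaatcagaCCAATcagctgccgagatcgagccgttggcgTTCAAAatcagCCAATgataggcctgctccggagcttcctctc
Pttg1 (GRCm38.p6, chr11:43425982-43426081, minus strand): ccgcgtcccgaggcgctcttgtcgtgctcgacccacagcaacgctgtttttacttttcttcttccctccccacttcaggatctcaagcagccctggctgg
*Top2a* is shown for a topoisomerase, *Cdc20*, *Ube2c* and *Espl1* for anaphase, *Kif11* for the spindle motors, *Ckap2l* for spindle assembly and *Prc1* for cytokinesis. In each of these 7 sequences the CHR lies within 50 bases of the start and a CCAAT box lies upstream of it. *Bub3* has the same arrangement, and *Pttg1* has neither motif in its whole window.

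Over all windows of the mitotic genes, the CHR was found in 45 of 60 (75%), against 19.2% of all 32851 windows of the table and 14.7% of the windows of genes tested here. A CCAAT box was found in 44 of 60 (73.3%), against 37.4% and 38.0%. Both were found together in 36 of 60 (60%), against 7.52% and 6.14%. A CHR within 50 bases of the start was found in 66.7% of the windows, against 5.31% of all windows and 3.89% of those of genes tested. The 58 CHR matches had a median position of −13 relative to the start, and the 91 CCAAT matches one of −65. Some windows of the same gene overlap, as for *Bub3* and *Prc1*, so a site there was counted once per window.

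**Figure D3:**
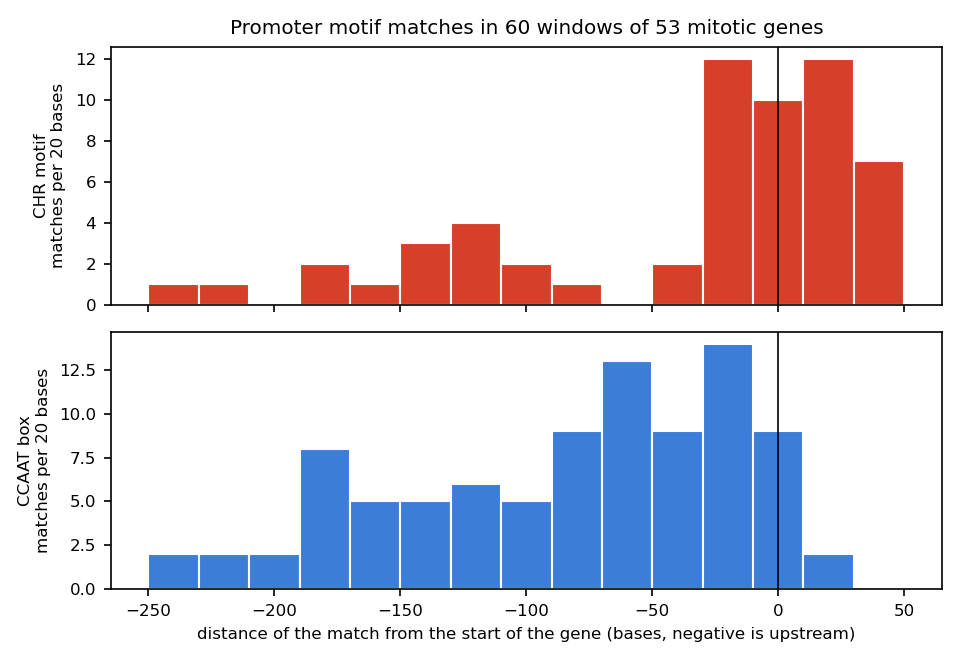
Positions of the motif matches in the 60 promoter windows of 53 mitotic genes, as matches per 20 bases (y axis) by distance from the start of the gene in bases (x axis, negative is upstream); the upper panel shows the CHR and the lower panel the CCAAT box. Of the 58 CHR matches 43 lie within 50 bases of the start, and of the 91 CCAAT matches 34 do.

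Genes with and without a CHR match had medians close to each other. The median log2 fold change was 1.19 over the 41 genes with a CHR match (range 0.28 to 1.68), and 1.27 over the 12 with a window and no match (range −0.03 to 1.37). All 6 spindle kinesins and all 6 cytokinesis genes with a window held a CHR, as did 50% of the windows of the centromere and kinetochore genes. Among other genes of division, the CHR was found in 3 of 4 windows of G2/M cyclins and their regulators (75%). For other spindle and cytokinesis genes it was in 14 of 28 (50%), and for other kinetochore genes in 11 of 26 (42.3%). Other condensin and checkpoint genes had it in 3 of 7 (42.9%) and the G2/M transcription factors and MuvB subunits in 4 of 15 (26.7%). Shares were 2 of 8 for cohesin (25%), 6 of 27 for replication (22.2%) and 2 of 17 for subunits of the anaphase promoting complex (11.8%). For the centrosome it was 2 of 19 (10.5%). A match describes letters in a window and does not show that a factor binds there.

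*Mki67* encodes a widely used proliferation marker that coats mitotic chromosomes, and *Top2a* the topoisomerase that untangles sister chromatids. *Mki67* had 3063 and 3052 counts in the WT libraries, 3861 in cKO1 and 12144 in cKO2. *Top2a* had 1428 and 1582 counts in WT, then 1940 and 5698. For both genes the groups did not overlap, and cKO2 stood far above the other 3 libraries. The log2 fold change was 1.31 (SE 0.43, FDR 0.36) for *Mki67* and 1.27 (SE 0.41, FDR 0.352) for *Top2a* by the quasi-likelihood test. DESeq2 gave larger FDRs, 0.731 for *Mki67* and 0.710 for *Top2a*. It did so for some other members too, such as *Aurkb* (0.728 against 0.36 by the quasi-likelihood test) and *Kif11* (0.793 against 0.383).

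Of the 4 mitotic kinases, all were higher at an unadjusted p below 0.05 (6.95% of all genes tested were), with a median log2 fold change of 1.21. *Plk1*, which drives entry into mitosis and spindle maturation, had 175 and 171 counts in WT and 218 and 577 in the cKO-labelled libraries. *Aurka*, the kinase of the spindle poles, had 134 and 140 counts, then 199 and 531 (log2 fold change 1.34, SE 0.40, FDR 0.346 by edgeR and 0.0457 by DESeq2). *Melk*, a kinase of dividing progenitors, had 103 and 143 counts, then 141 and 367. *Melk* overlapped between the groups, since cKO1 lay within the WT range, while *Plk1*, *Aurka* and *Nek2* did not.

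The chromosomal passenger complex corrects faulty attachments at the centromere and moves to the midzone in anaphase. Its kinase subunit *Aurkb* had 196 and 193 counts in WT and 255 and 748 in the cKO-labelled libraries. *Birc5* (survivin) had 227 and 242 counts, then 370 and 816, and *Cdca8* (borealin) had 193 and 231, then 328 and 685. *Incenp*, the scaffold that activates AURKB, had 581 and 751 counts, then 709 and 1579, and so overlapped between the groups. *Birc5* was among the genes that cKO1 held at 1.5-fold or more (1.52-fold, and 3.29-fold in cKO2), and its log2 fold change was 1.27 (SE 0.33, FDR 0.307 by the quasi-likelihood test, 0.0222 by the likelihood ratio test). For *Incenp* it was 0.71 (SE 0.32, FDR 0.49).

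For the 11 centromere and kinetochore genes the median log2 fold change was 1.16. At an unadjusted p below 0.05, 8 of them were higher, against 6.95% of all genes tested. *Cenpe*, a kinetochore motor, had 513 and 423 counts in WT and 566 and 1547 in the cKO-labelled libraries. *Nuf2*, a subunit of the NDC80 complex that grips the microtubule, had 130 and 160 counts, then 224 and 564, with the largest log2 fold change of the 11 (1.37, SE 0.39, FDR 0.336 by the quasi-likelihood test, 0.0429 by the likelihood ratio test). *Cenpa*, the histone H3 variant that marks the centromere, had 193 and 240 counts, then 287 and 430, with the smallest (0.66, SE 0.22, FDR 0.365). Groups did not overlap for these 3 genes. The other subunits of the same complex differed in cKO1: *Spc24* stood at 1.48-fold of the WT mean there and *Ndc80* at 1.25-fold, whereas *Spc25* stood at 1.01-fold, and in cKO2 they stood at 3.39-fold, 3.49-fold and 2.57-fold. *Cenpi*, *Cenpm* and *Spc25* had no unadjusted p below 0.05, and *Cenpm* had the lowest counts of these (45, 52, 49 and 115). Groups overlapped for *Cenpi*, *Cenpm* and *Knl1*.

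Checkpoint genes held the largest log2 fold change of the 60 and one of the smallest. *Bub1*, a checkpoint kinase at the kinetochore, had 110 and 103 counts in WT, 203 in cKO1 and 517 in cKO2. Its log2 fold change was 1.68 (SE 0.40), with an FDR of 0.307 by the quasi-likelihood test, 0.01 by the likelihood ratio test and 0.00392 by DESeq2. *Bub3*, the WD40 partner of BUB1 and BUBR1, had 928 and 904 counts, then 1111 and 1226 (log2 fold change 0.28, SE 0.13, FDR 0.49). Groups did not overlap for either gene, but the counts of *Bub1* per count of *Bub3* were 0.119 and 0.114 in WT, 0.183 in cKO1 and 0.422 in cKO2. *Bub1b* (BUBR1) had 298, 354, 435 and 1049 counts and *Mad2l1* (MAD2) had 167, 182, 244 and 679, with FDRs of 0.0499 and 0.0394 by DESeq2 and 0.351 and 0.347 by the quasi-likelihood test.

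Among the 7 genes of anaphase and cohesion, 6 were higher at an unadjusted p below 0.05 and *Pttg1* was not. Of all genes tested, 6.95% were higher at that p. *Espl1*, which encodes separase, had 149 and 173 counts in WT and 290 and 537 in the cKO-labelled libraries (log2 fold change 1.29, SE 0.28, FDR 0.307 by the quasi-likelihood test, 0.00738 by the likelihood ratio test). *Pttg1*, which encodes its inhibitor securin, had 344 and 392 counts, then 404 and 349 (log2 fold change −0.03, SE 0.16, FDR 0.964). *Espl1* did not overlap between the groups, and for *Pttg1* the WT libraries (24.3 and 25.9 CPM) lay between those labelled TopBP1 cKO (26.5 and 22.6 CPM). The counts of *Espl1* per count of *Pttg1* were 0.433 and 0.441 in WT, 0.718 in cKO1 and 1.54 in cKO2. *Ube2c*, the E2 enzyme, had 324 and 303 counts, then 451 and 1085, and *Sgo1*, the shugoshin that shields centromeric cohesin, had 45 and 68, then 88 and 256. *Sgo1* had the largest log2 fold change of the 7 (1.54, SE 0.48, FDR 0.347), and *Ube2c* had one of 1.22 (SE 0.35, FDR 0.343, 0.0478 by the likelihood ratio test). *Cdc20*, with 145, 156, 216 and 473 counts, shares 27.4% of its 31-base words with other genes, above all *Gm7856*, so its reads may have been split between them.

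All 6 spindle kinesins were higher at an unadjusted p below 0.05, and none overlapped between the groups. Of all genes tested, 6.95% were higher at that p, and 22.8% lay above WT in both cKO-labelled libraries. As a group they stood at a median of 1.54-fold of the WT mean in cKO1 and 3.31-fold in cKO2. *Kif11*, the motor that pushes the spindle poles apart, had 547 and 489 counts in WT, then 623 and 1901. *Kif18b*, which trims astral microtubules, had 83 and 83 counts, then 147 and 337, the largest log2 fold change of the 6 (1.47, SE 0.37, FDR 0.307, 0.0237 by the likelihood ratio test). *Kif15*, which backs up KIF11, had 409 and 393 counts, then 500 and 1185, the smallest (1.00, SE 0.34, FDR 0.377). *Kif2c*, a microtubule depolymerase at the centromere, had 91, 95, 165 and 363 counts. *Kif4*, a chromosome arm motor, had 166, 174, 281 and 569 counts, and *Kif22*, another one, had 137, 128, 207 and 428. *Kif2c*, *Kif4* and *Kif22* passed FDR < 0.05 by the likelihood ratio test (0.0204, 0.0191 and 0.047).

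Spindle assembly factors divided in cKO1, where *Aspm* stood at 1.02-fold of the WT mean and *Spag5* at 1.77-fold. *Tpx2*, the activator of Aurora A and the most abundant of the 6 by counts, had 551 and 523 counts in WT, then 651 and 1492 (log2 fold change 0.92, SE 0.33, FDR 0.384). *Spag5* (astrin), which steadies kinetochore fibres, had 158 and 132 counts, then 268 and 598 (1.50, SE 0.35, FDR 0.307, 0.0105 by the likelihood ratio test). *Hmmr*, a microtubule-binding factor that localizes TPX2, had 186 and 159 counts, then 283 and 624. *Ckap2l*, a spindle protein, had 224 and 241 counts, then 372 and 997. Groups overlapped for *Aspm* alone among the 6, with 245 and 224 counts in WT and 249 and 857 in the cKO-labelled libraries, since cKO1 (16.3 CPM) lay between the WT libraries (17.3 and 14.8 CPM) after scaling.

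For the 7 cytokinesis genes the median log2 fold change was 1.29, and the centralspindlin subunits were at its low end. *Kif23*, the motor of centralspindlin, had 1068 and 1065 counts in WT, then 1278 and 2276 (log2 fold change 0.66, SE 0.24, FDR 0.389). For its partner *Racgap1* the log2 fold change was 0.86 (SE 0.26, FDR 0.347), and the counts of *Kif23* per count of *Racgap1* were 2.15 and 2.06 in WT, 1.91 in cKO1 and 1.80 in cKO2. *Cep55*, which recruits the machinery of abscission, had 142 and 92 counts, then 186 and 546, the largest difference of the 7 (1.56, SE 0.47, FDR 0.347). *Kif20a*, a midzone motor, had 209, 192, 289 and 768 counts, with an FDR of 0.0295 by DESeq2 and 0.346 by the quasi-likelihood test. Groups overlapped only for *Ect2*, the RHOA exchange factor, which also had the widest gap of the 7 between the WT libraries (195 and 112 counts, then 185 and 471).

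For the 6 condensin genes the median was 0.98 on the log2 scale, and the 2 core ATPases were far apart. *Smc4*, which had the highest WT level per kilobase of all 60 genes, had 2819 and 2934 counts in WT, then 2902 and 4529 (log2 fold change 0.30, SE 0.19, FDR 0.622). *Smc2*, its obligate partner in both condensin complexes, had 619 and 582 counts, then 775 and 1836 (1.04, SE 0.34, FDR 0.357). Counts of *Smc2* per count of *Smc4* were 0.220 and 0.198 in WT, 0.267 in cKO1 and 0.405 in cKO2. *Ncaph*, the kleisin of condensin I, had 180 and 185 counts, then 239 and 642, the largest difference of the 6 (1.20, SE 0.40, FDR 0.361). *Ncapd2*, another subunit of condensin I, had 715 and 827 counts, then 1013 and 2056, with an FDR of 0.0499 by DESeq2 and 0.347 by the quasi-likelihood test. For *Smc4* and for *Ncapg2*, a subunit of condensin II, cKO1 lay within or below the WT range, so the groups overlapped.

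The remaining pair, *Cdca2* and *Cdca3*, act on exit from and entry into mitosis. *Cdca2*, a targeting subunit of a mitotic exit phosphatase, had 209 and 206 counts in WT, then 237 and 632. *Cdca3*, which helps to remove WEE1, had 186 and 214 counts, then 270 and 563. Their log2 fold changes were both 0.99 (SE 0.39 and 0.31, FDR 0.436 and 0.351), and neither overlapped between the groups.

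Across roles, the difference of cKO2 was broad, and that of cKO1 was uneven. In cKO2, 39 of the 60 genes stood at 3-fold or more of the WT mean, and only *Cenpa*, *Bub3*, *Pttg1* and *Smc4* stood under 2-fold. In cKO1, 11 genes stood at 1.5-fold or more, namely *Birc5*, *Bub1*, *Espl1*, *Sgo1*, *Kif2c*, *Kif4*, *Kif18b*, *Hmmr*, *Ckap2l*, *Spag5* and *Cep55*. Another 10 stood under 1.1-fold there, namely *Incenp*, *Cenpi*, *Cenpm*, *Knl1*, *Spc25*, *Pttg1*, *Aspm*, *Smc4*, *Ncapg2* and *Cdca2*. *Sgo1*, *Spag5* and *Cep55*, of the first set, were also among 11 genes whose WT libraries differed by more than 1.25-fold. Of all genes tested, 5.75% stood at 2-fold or more in cKO2. Shares over all genes at 3-fold in cKO2 and at 1.5-fold and 1.1-fold in cKO1 were not computed.

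Levels between genes were compared as CPM per kilobase of the longest protein-coding transcript (GENCODE vM21). In WT, *Smc4* was highest with 45.6 ± 0.83 CPM per kilobase (SD, n = 2), followed by *Kif23* (21.5 ± 1.04), *Mki67* (20.8 ± 1.02), *Top2a* (19.7 ± 0.51) and *Bub3* (18.4 ± 1.19). From *Kif23* to *Bub3*, neighbours in this order differed by less than the WT libraries of *Kif23* did (22.2 and 20.7). *Sgo1* was lowest (1.06 ± 0.26). In cKO2, *Mki67* (78.1) and *Top2a* (70.6) stood above *Smc4* (67.9).

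Genes of the pathway outside the 60 differed by list. Over 130 such genes, 56 were higher and 1 was lower at an unadjusted p below 0.05 by the quasi-likelihood test. Over all 12393 genes tested, 861 (6.95%) were higher and 467 lower at that p. By the same test 0 of the 130 passed FDR < 0.05, and their median log2 fold change was 0.50. Medians were close to that of the mitotic genes for the G2/M cyclins and their kinase and regulators (1.21, 8 of 8 higher at that p), for other spindle and cytokinesis genes (1.07, 18 of 27), for other kinetochore genes (0.94, 13 of 29) and for replication genes, listed for comparison (1.33, 25 of 29). *Cdk1*, the kinase that drives mitosis, had 166 and 199 counts in WT and 302 and 777 in the cKO-labelled libraries, and *Oip5*, which loads CENP-A, had 8 and 17, then 22 and 87. Medians were near 0 for subunits of the anaphase promoting complex (0.13, 1 of 15 higher, *Cdc23*, and 1 lower, *Anapc16*) and for cohesin and its loaders (0.17, 2 of 12 higher). Within cohesin the acetyltransferase *Esco2*, made in S phase, stood apart from its paralogue *Esco1*: *Esco2* had 74, 78, 89 and 258 counts and *Esco1* had 1334, 1184, 1179 and 1066.

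**Figure D4:**
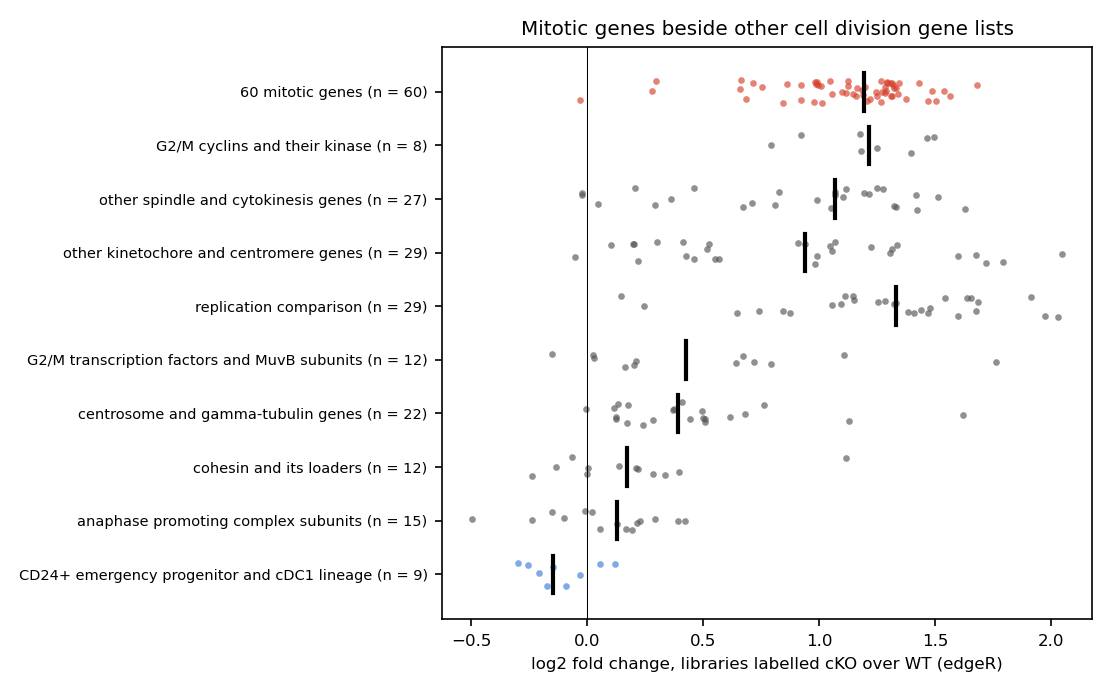
Log2 fold change of the cKO-labelled libraries over WT by edgeR (x axis) for each gene (points) of the 60 mitotic genes and of 9 other lists (y axis, with the number of genes tested), with black bars at the medians. The medians are 1.19 for the mitotic genes, 0.13 for subunits of the anaphase promoting complex and −0.15 for markers of CD24+ EPs and the cDC1 lineage.

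The transcription factors of the programme differed among themselves as well. *Mybl2* (B-MYB) had 84 and 91 counts in WT and 166 and 458 in the cKO-labelled libraries (log2 fold change 1.76, SE 0.43, FDR 0.307 by the quasi-likelihood test, 0.0119 by the likelihood ratio test). *Foxm1* had 214 and 271 counts, then 293 and 803 (1.11, SE 0.40, FDR 0.392). *Lin37*, a MuvB subunit, had 262 and 409 counts, then 351 and 278 (−0.15, SE 0.22, FDR 0.848), and *Nfya*, a subunit of the CCAAT-binding factor, had 2296 and 2426, then 2338 and 2698 (0.02, SE 0.12, FDR 0.967). Groups did not overlap for *Mybl2* and *Foxm1*, and they did for *Lin37* and *Nfya*. In the remaining lists, centrosome genes had a median of 0.39. At an unadjusted p below 0.05, 5 of these 22 genes were higher, against 6.95% of all genes tested. *Stil*, needed to duplicate centrioles, was at 1.62 and *Sass6* at −0.01. The 5 other condensin and checkpoint genes had a median of 0.53, from *Mad2l1bp* at −0.22 to *Trip13* at 1.23.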

How the data were processed

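The authors deposited whole-number counts per RefSeq transcript and gene symbol, without normalization, for 4 libraries of CD24+ EPs; these may be rounded estimates and were treated as counts. The submitters' processing notes name fastp, STAR, Salmon, GATK and GRCm39, without roles or versions, and how reads shared by transcripts were assigned is not given in the sources used here. RNA was extracted with TaKaRa RNAiso Plus per the labels, but with a RNeasy Mini kit per the methods, and libraries were made with the CORALL RNA-seq V2 kit. A transcript's count depends on that step, so counts were summed per gene symbol.

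Sums were filtered (filterByExpr), scaled by TMM and tested in edgeR 4.0.16 (quasi-likelihood test, R 4.3.3), fitted on all genes tested, with FDR < 0.05 over all of them. SEs were derived from the log2 fold change and the F statistic. CPM use TMM effective library sizes. The biological coefficient of variation was 15.2% in common and 26.8% for the median mitotic gene. The likelihood ratio test, DESeq2 1.42.0, limma-voom (limma 3.58.1), other scalings and filters, the most abundant transcript, a replicate block and leaving out each library were alternatives. The sources used here do not state whether replicate numbers pair the libraries, and the main test had no replicate block. Scripts were tested on simulated data (seed 11).

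The 60 genes, their roles and all other lists were chosen with earlier results of these data known. Counts in every library are given for the most abundant gene of each role by WT CPM, those with the largest and smallest log2 fold change, and those at FDR < 0.05 in any count test; other genes were named after their values were seen. Promoters are from RefSeq on GRCm38.p6 and lengths from GENCODE vM21, a different build from that of the counts, so they describe genes and not reads. SEs and p-values include the spread between libraries. The depth, at least 14561600 counts a library, gave every mitotic gene more than 20 counts in each.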

Additional observations from a re-analysis of the deposited data

How the results depend on the processing

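The number of the 60 mitotic genes at FDR < 0.05 depended on the test and on which libraries entered, while their median log2 fold change stayed above 0 in every alternative run. It was 0 by the quasi-likelihood test, 13 by the likelihood ratio test of edgeR (234 of all genes) and 16 by DESeq2 (137 of all genes). Leaving out 1 library at a time gave from 0 to 58: 0 with either WT library left out, 58 without cKO1 and 4 without cKO2. The median log2 fold change had its lowest value, 0.34, without cKO2 and its highest, 1.68, without cKO1. With a replicate block 51 were called (504 of all genes) and the median was 1.07. Same-numbered libraries did not deviate together (r = −0.03 across genes), but 2 libraries a group cannot show whether they were handled in pairs. No pairing is stated in the sources used here.

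DESeq2 size factors, upper quartile scaling, no filter, a minimum of 10 counts in each library, the most abundant transcript and limma-voom each left 0 called (0 by the quasi-likelihood test with 51, 51, 56, 52 and 11 at an unadjusted p below 0.05 in the first 5, and 38 by limma-voom). No scaling moved the median of all genes by as much as 0.1. Of 780 recomputed log2 fold changes, 5 changed sign. *Cenpm* was at −0.24 with the most abundant transcript and ran from −0.0502 (without cKO2) to 1.16 (without cKO1) with 1 library left out, *Pttg1* from −0.157 (without cKO1) to 0.0694 (without cKO2), with 0.00158 without WT2, and *Smc4* from −0.0544 (without cKO2) to 0.573 (without cKO1). The cause was not tested. Every mitotic gene had more than 20 counts in each library.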

Other observations

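Some transcript entries of mitotic genes had counts in 1 group and 0 in the other. Of the 281 transcript entries of the 60 genes, 210 had a count in some library. In 4 genes (*Mki67*, *Aurka*, *Espl1* and *Racgap1*) 1 entry each had counts in both WT libraries and 0 in both cKO-labelled libraries. The reverse held for 10 entries of 9 genes (*Cenpa*, *Spc24*, *Ttk*, *Espl1*, *Sgo1*, *Aspm*, *Ckap2l*, *Prc1* and *Racgap1*). For *Mki67*, XM_036152742.1 had 779 and 584 counts in WT and 0 in both others, while NM_001081117.2 had 443, 369, 1049 and 4829. For *Espl1*, NM_001014976.2 had 110 and 156 counts in WT and 0 after that, and XM_006520259.5 had 0 and 0 in WT, then 246 and 163. For *Prc1*, NM_001374624.1 had 0 and 0 in WT, then 43 and 66, and for *Racgap1*, NR_177956.1 had 0 and 0, then 56 and 67. Entries also went from counts to 0 between the WT libraries. In WT1 and WT2, NM_028390.4 of *Anln* had 142 and 0 counts and NM_017407.3 of *Spag5* had 0 and 126. NM_175384.4 of *Cdca2* had 105 and 0. The share of such entries over all genes was not computed. The rule that shared reads between transcripts is not given in the sources used here, and these values are given as listed, without a test.

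Of the 60 genes, 10 have a single transcript entry, so that no split between entries of a gene arises there. Such a split does not alter a sum per symbol in the other genes either, so these 10 do not test the sums. All 10 lay above WT in both cKO-labelled libraries, with a median log2 fold change of 1.16 (from 0.98 up), a median of 1.23-fold of the WT mean in cKO1 and 3.13-fold in cKO2. Sequence shared with other genes was highest in *Cdc20* (27.4% of its 31-base words), followed by *Ndc80*, *Plk1* and *Racgap1*. *Cdc20*, *Ndc80* and *Plk1* are among the 10 genes with a single entry, so sharing with other genes may still enter their sums.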
